A study of Mus musculus with 6 samples.

Results

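RNA levels of 10 mouse genes for chemokines and cytokines, with 1 cytokine receptor among them, were followed through long-term peroxide exposure of Py2T cells. The genes are a list of symbols (Ccl2, Ccl7, Ccl5, Ccl20, Cxcl1, Cxcl5, Csf1, Csf1r, Il6 and Lif), matched to the table by Entrez ID. All 10 have a row among the 24454 rows of the table, and 0 were absent. Py2T is a line of mouse mammary tumour cells that grows as an epithelium. The PBS control had 0 µM H2O2 (its labels give PBS as the treatment, and the protocol describes it as untreated). The C40 line had 40 µM H2O2 daily over 4 months, and the I60 line 60 µM in the same schedule. Each group has 2 libraries, described as biological duplicates, and all come from this 1 parental line. Nothing in the sources says whether the duplicates were exposed apart, so the p-values describe the spread between libraries. Drift of a line over the 4 months cannot be told apart from an effect of H2O2.

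Chemokines are small secreted proteins that draw leukocytes along a gradient through receptors coupled to G proteins, and CC and CXC chemokines are told apart by the spacing of their first cysteines. CCL2 and CCL7 draw monocytes through CCR2, whereas CXCL1 and CXCL5 draw neutrophils through CXCR2. CSF1 keeps macrophages alive through its receptor tyrosine kinase CSF1R, and IL-6 and LIF signal through the shared receptor chain gp130. In mammary tumours CCL2 and CSF1 are known for the macrophages they bring in and sustain.

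Library depth ran from 48113692 to 60260520 reads, so that 1 read equals 0.0166 to 0.0208 CPM (the unit of the table, in which a gene's reads are scaled by the total of their library). Of the 10 genes, 7 passed the filter of at least 1 CPM in at least 2 libraries, as did 11524 genes in all. Ccl5, Ccl20 and Il6 stayed under it and are given as levels. Ccl2 and Ccl7 passed only through the H2O2 lines, where they were high. Differences were tested with limma on log2(CPM + 0.5), and a gene is called at an adjusted p below 0.05 over all genes tested. Folds from this scale understate the change of genes near 0. Epithelial markers were present in PBS, apart from Krt19 (0.263 and 0.0498 CPM), which did not pass the filter. Over all genes tested, 9.02% were called lower in C40 and 13.1% in I60. Of 7 epithelial markers tested, 5 fell in both lines (median log2 difference -2.44 in C40 and -8.02 in I60). Among them was Cdh1, the gene for E-cadherin, at 529 and 537 CPM in PBS, 59.7 and 87.8 CPM in C40, and 0.187 and 0.129 CPM in I60. Krt8 and Krt18 were not called in either line. Of 15 leukocyte markers, Adgre1, Tyrobp and Cd3e had 0 reads in every library and Ptprc was at most 0.35 CPM. The leukocyte list summed to 19.1 to 52.6 CPM per library, most of it from Cd14 and Cd68.

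NF-kB is a transcription factor that many cytokine genes answer to. The 160 bases before the transcript start are shown for the members whose RefSeq promoter (GRCm38.p6, the build also called mm10) holds, on either strand, GGG, any 2 bases, TT, any base and CC, a form of its binding motif. They are printed 5′ to 3′ on the strand of the gene with each match in capitals, because these genes span the range from Il6, at 1 read in the series, to Csf1, at over 100 CPM in every library. RefSeq promoters were matched for 5 of the 10 members. Ccl2, Ccl7, Ccl5, Cxcl5 and Csf1r had no entry, so every member called in the main test is missing here. A match was present in 4 of these 5, against 2.78% of all 32851 promoter windows of that length. With 5 windows from a chosen list, that difference was not tested and says nothing of the members without an entry. The fifth, Lif, had no match in its window.
Cxcl1, chr5:90891085-90891244, plus strand, with 2 matches that begin 89 and 71 bases before the start: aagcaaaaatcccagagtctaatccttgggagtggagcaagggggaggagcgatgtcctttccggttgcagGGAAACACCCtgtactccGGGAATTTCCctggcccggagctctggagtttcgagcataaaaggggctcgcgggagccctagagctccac
Ccl20, chr1:83116606-83116765, plus strand, with 2 matches that overlap and begin 81 and 80 bases before the start: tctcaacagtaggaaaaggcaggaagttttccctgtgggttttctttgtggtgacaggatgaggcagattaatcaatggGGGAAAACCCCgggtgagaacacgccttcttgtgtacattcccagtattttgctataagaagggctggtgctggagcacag
Csf1, chr3:107760470-107760629, minus strand, with 1 match that begins 154 bases before the start: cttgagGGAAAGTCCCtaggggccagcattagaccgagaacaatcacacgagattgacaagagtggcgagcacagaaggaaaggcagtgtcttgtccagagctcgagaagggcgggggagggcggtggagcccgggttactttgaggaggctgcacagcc
Il6, chr5:30012954-30013113, plus strand, with 1 match that begins 44 bases before the start: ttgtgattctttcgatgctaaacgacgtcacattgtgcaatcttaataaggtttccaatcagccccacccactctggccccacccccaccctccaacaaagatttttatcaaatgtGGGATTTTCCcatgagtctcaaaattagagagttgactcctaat
These matches are letters in a window, and no binding was measured.

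The monocyte chemokine genes Ccl2 and Ccl7 were silent or nearly so in PBS and rose in both H2O2 lines. In bulk RNA more expressing cells and more RNA per cell cannot be told apart. Ccl2 (Entrez 20296, chromosome 11, 82035577 to 82037452) stood at 0.0875 and 0 CPM in PBS, 20.9 and 5.89 CPM in C40, and 71.0 and 68.9 CPM in I60. The groups did not overlap, with both I60 libraries on top and C40 between. The mean was 0.0438 ± 0.0619 CPM in PBS, 13.4 ± 10.6 CPM in C40 and 69.9 ± 1.51 CPM in I60 (SD, n = 2). The PBS libraries held 5 Ccl2 reads in all, against 1327 in C40 and 7531 in I60. Pooled reads gave a ratio to PBS of 304 in C40 (exact 95% interval 130 to 938) and 1642 in I60 (703 to 5059), where the intervals cover counting error only. On the log2 scale Ccl2 rose by 4.43 in C40 (SE 0.52, limma adjusted p = 0.00151). It rose by 7.02 in I60 (SE 0.52, limma adjusted p = 0.000115). Both calls held with each library left out in turn. Where a library is left out, the other library of its group is assumed to vary like the remaining groups.

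Ccl7, a close relative of Ccl2 that also draws monocytes, lies 8259 bases further along chromosome 11 (Entrez 20306, 82045712 to 82047525). It had 0 reads in both PBS libraries, 5.55 and 0.846 CPM in C40, and 8.48 and 6.85 CPM in I60. Against a floor of 3 reads over the PBS group (0.0256 CPM), Ccl7 was at least 119.5-fold higher in C40 and at least 299.8-fold higher in I60. Both rises were called by limma (adjusted p = 0.0315 for C40, log2 difference 2.51, SE 0.63; adjusted p = 0.00357 for I60, 4.02, SE 0.63). The I60 call held with each library left out. The C40 call did not hold when any PBS or I60 library was left out (limma adjusted p = 0.0724 to 0.159). Within C40, replicate 1 was 3.56-fold above replicate 2 for Ccl2 and 6.56-fold for Ccl7. The fibroblast marker list was also higher in both lines than in PBS, in another order: its 9 genes summed to 7.37 and 6.31 CPM in PBS, 731 and 188 CPM in C40 (replicates 1 and 2), and 467 and 433 CPM in I60. Most of that sum was Col3a1, at 575 and 122 CPM in C40, and Dcn and Col1a1 were higher in C40 replicate 2. For I60 against C40, 3.51% of all genes were called higher and 5.73% lower. Of the 5 fibroblast markers tested, 0 were called higher and 1 lower, which with so few genes shows nothing particular to that list. The counts were 0 and 2 at an unadjusted p below 0.05, 0 and 1 by edgeR, and 0 and 2 by DESeq2. Of that list, 3 genes (Fap, Lum and Thy1) were at 0 reads throughout, and the part of the list in the Ccl2 and Ccl7 results was not tested.

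**Figure D1:**
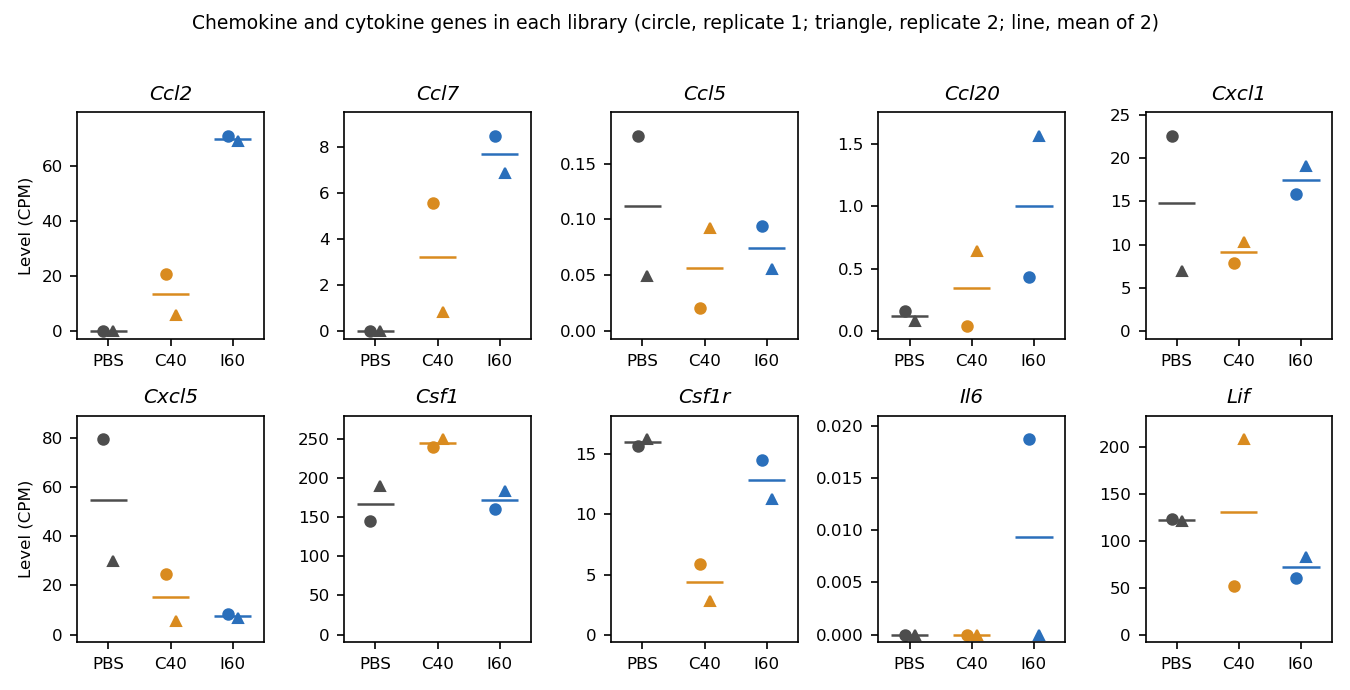
Level of each member in CPM (vertical axis, linear, own scale per panel) in PBS, C40 and I60; circles are replicate 1, triangles replicate 2 and lines the mean of 2 libraries. Ccl2 and Ccl7 sit at or near 0 in PBS and are highest in I60, while Csf1r is lowest in C40 and Il6 has a single read in the whole series.

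The other CC chemokine genes beside Ccl2 stayed near 0. Ccl11, Ccl12 and Ccl8, which follow Ccl7 on chromosome 11 within 100 kb of Ccl2, were at most 0.0831 CPM in any library, and Ccl12 had 0 reads in all 6. Ccl5, which encodes the T cell attractant RANTES (chromosome 11, 83525778 to 83530518), stood at 0.175 and 0.0498 CPM in PBS, 0.0208 and 0.0920 CPM in C40, and 0.0936 and 0.0553 CPM in I60. These are 13, 6 and 8 reads per group, and all groups overlapped. Ccl20, which encodes a ligand of CCR6 on lymphocytes and dendritic cells (chromosome 1, 83116766 to 83119167), stood at 0.158 and 0.0830 CPM in PBS, 0.0416 and 0.644 CPM in C40, and 0.431 and 1.57 CPM in I60. Both I60 libraries were above both PBS libraries, and C40 overlapped each. Pooled reads of Ccl20 were 8.41 times as high in I60 as in PBS (exact 95% interval 4.80 to 15.9, counting error only), without a test across genes.

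Of the 2 neutrophil chemokine genes among the members, both on chromosome 5, Cxcl5 fell in I60 and Cxcl1 was called in neither line. Cxcl5 (Entrez 20311, 90759298 to 90761625), which encodes the neutrophil attractant LIX, stood at 79.5 and 30.0 CPM in PBS, 24.7 and 5.46 CPM in C40, and 8.48 and 6.60 CPM in I60. Both PBS libraries were above all 4 others, though they differed 2.65-fold from each other. Cxcl5 fell by 2.63 on the log2 scale in I60 (SE 0.71, limma adjusted p = 0.0327), from 54.8 ± 35.0 to 7.54 ± 1.34 CPM (SD, n = 2). That call did not survive leaving out PBS replicate 1 (limma adjusted p = 0.198) or an I60 library (0.124 without replicate 1, 0.171 without replicate 2). In C40 the difference was -2.01 (SE 0.71, limma adjusted p = 0.0888), and it passed without C40 replicate 1 (0.00415), by DESeq2 (adjusted p = 0.0165) and with the replicate number as a block (limma adjusted p = 0.0122). Cxcl1 (Entrez 14825, 90891245 to 90893121), which encodes the neutrophil attractant KC and whose promoter window is shown above, had PBS levels of 22.6 and 6.97 CPM, C40 levels of 7.92 and 10.4 CPM and I60 levels of 15.9 and 19.1 CPM. The PBS libraries enclosed all 4 others. C40 differed from PBS by -0.46 (SE 0.50, limma adjusted p = 0.548). I60 differed by 0.45 (SE 0.50, limma adjusted p = 0.547) and lay above C40 without overlap (0.91, limma adjusted p = 0.358). The sign of the first turned without PBS replicate 1 and that of the second without PBS replicate 2 (0.36 and -0.37). The 5 epithelial markers called lower in both lines (Cdh1, Epcam, Krt7, Cldn3 and Cldn7) shared with Cxcl5 a lower mean than in PBS. Within C40 they went the other way: Cxcl5 was 4.52-fold higher in replicate 1, and all 5 markers were higher in replicate 2. The part of these markers in the Cxcl5 result was not tested.

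Between Cxcl5 and Cxcl1 lie Ppbp and Cxcl3, both ligands of CXCR2 as well, with Pf4 and Cxcl15 at or near 0. Cxcl3 went from 45.4 and 15.9 CPM in PBS to 5.09 and 2.45 CPM in C40, and to 0.730 and 0.350 CPM in I60. It fell in C40 (log2 difference -2.76, limma adjusted p = 0.0126, lost without PBS replicate 1 at 0.0746). It fell in I60 as well (-4.75, limma adjusted p = 0.000819), which held with each library left out. Ppbp had 36.9 and 6.67 CPM in PBS, then 5.28 and 1.03 CPM in C40, and at most 0.318 CPM in I60. It fell in I60 (log2 difference -4.34, limma adjusted p = 0.00950), a call lost when either I60 library was left out (0.0685 and 0.0751). In C40 Ppbp did not pass (-2.46, limma adjusted p = 0.0849) and did without PBS replicate 2 or C40 replicate 1 (0.0373 and 0.0160). Ppbp was called lower in C40 by DESeq2 (adjusted p = 0.00356) and with the replicate block (limma adjusted p = 0.0172). For all 3 genes PBS replicate 1 was the highest library of the series. Cxcl2, on the far side of Cxcl1, was at most 0.313 CPM.

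**Figure D2:**
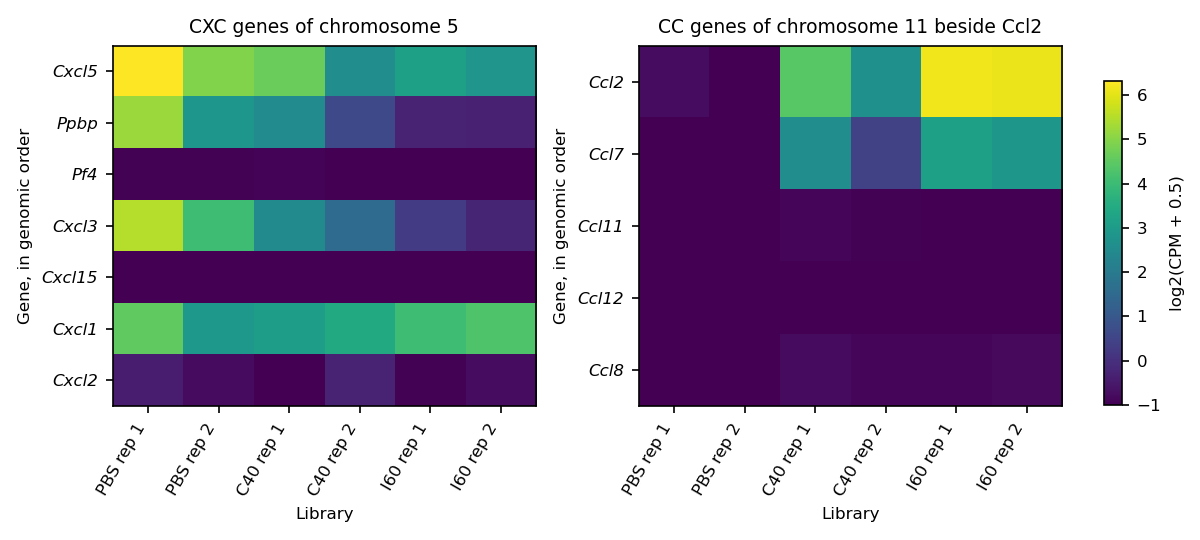
Colour shows log2(CPM + 0.5) in each library (columns) for chemokine genes in genomic order (rows), with CXC genes of chromosome 5 on the left and CC genes beside Ccl2 on the right. Cxcl5, Ppbp and Cxcl3 are brightest in PBS replicate 1, Cxcl1 shows no such order of the groups, and Ccl2 and Ccl7 are bright in I60 while Ccl11, Ccl12 and Ccl8 are dark throughout.

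Csf1r, the gene for the receptor of macrophage growth factor, fell in C40, while Csf1, the gene for the ligand, was called only with the replicate number as a block, as higher in C40. Csf1 (Entrez 12977, chromosome 3, 107741048 to 107760469) stood at 145 and 189 CPM in PBS, 239 and 249 CPM in C40, and 161 and 183 CPM in I60. Both C40 libraries were above all others, and the I60 range lay within that of PBS. The differences were 0.56 in C40 (SE 0.18, limma adjusted p = 0.0724), 0.05 in I60 (SE 0.18, limma adjusted p = 0.872) and -0.51 for I60 against C40 (limma adjusted p = 0.157). With the replicate block the C40 difference passed (limma adjusted p = 0.0455). Csf1r (Entrez 12978, chromosome 18, 61105572 to 61131139), which encodes the receptor best known from macrophages, stood at 15.7 and 16.3 CPM in PBS, 5.90 and 2.81 CPM in C40, and 14.5 and 11.3 CPM in I60. C40 was the low group and overlapped with neither of the others. Csf1r fell by 1.84 on the log2 scale in C40 (SE 0.35, limma adjusted p = 0.0109), from 15.997 ± 0.399 to 4.36 ± 2.18 CPM (SD, n = 2). That call was lost without PBS replicate 1 or 2 (limma adjusted p = 0.0772 and 0.0691). In I60 the difference from PBS was -0.31 (SE 0.35, limma adjusted p = 0.547). The 15 leukocyte markers summed to 22.5 and 19.1 CPM in PBS, 28.2 and 30.5 CPM in C40, and 36.5 and 52.6 CPM in I60. Cd14 made up most of the C40 sum (21.6 and 25.5 CPM). Of this list, Cd68 (4.64 CPM in PBS, 3.91 CPM in C40 and 22.1 CPM in I60) had its lowest mean in C40. Cx3cr1 (0.188, 0.0472 and 0.0929 CPM, on 22, 5 and 10 reads) did as well, as did Fcer1g, Laptm5 and Cd79a on fewer reads. Mrc1 (2.74, 1.65 and 0.797 CPM), Ptprc and Itgam were instead lowest in I60, and Cd14 and Aif1 in PBS. The part of these markers in the Csf1r result was not tested. Il34, the other ligand of this receptor, had 31.4 and 38.3 CPM in PBS, 19.8 and 19.6 CPM in C40, and 11.99 and 17.7 CPM in I60. It is named after its values were seen and fell by 1.22 on the log2 scale in I60 (limma adjusted p = 0.0123). Leaving out a PBS library or the first I60 library ended that call (limma adjusted p = 0.0533 to 0.0929).

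Of the gp130 cytokines, Lif was abundant in every library and Il6 was not detected beyond 1 read. Lif (Entrez 16878, chromosome 11, 4257568 to 4272514), which encodes leukemia inhibitory factor, stood at 123 and 122 CPM in PBS, 52.2 and 208 CPM in C40, and 60.8 and 83.1 CPM in I60. The C40 libraries lay on either side of all the others, and both I60 libraries were below both PBS libraries. No comparison called Lif (log2 difference -0.23 in C40, SE 0.57, limma adjusted p = 0.805; -0.78 in I60, limma adjusted p = 0.352). The C40 libraries decided this: without C40 replicate 1 Lif was called higher in C40 (0.77, limma adjusted p = 0.0366), and without C40 replicate 2 lower (-1.22, limma adjusted p = 0.00790). In each of these fits C40 is 1 library, and its spread is taken from PBS and I60 alone. Without either of them the I60 difference of -0.78 passed as well (limma adjusted p = 0.0129 and 0.0136). Il6 (Entrez 16193, chromosome 5, 30013114 to 30019975) had 0 reads in PBS and C40 and 1 read in I60 replicate 1 (0.0187 CPM). A count of 0 allows up to 3 reads over a group, or 0.0256 CPM in PBS and 0.0293 CPM in C40.

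Calls among the members were counted beside the share called over all genes. In C40, 2 of the 7 tested members were higher than in PBS (Ccl2 and Ccl7; 11.2% of all genes tested were higher) and 1 was lower (Csf1r; 9.02% of all genes). With the replicate block these were 3 and 2, with Csf1 and Cxcl5 added, and 24.8% of all genes were called in either direction. In I60, 2 were higher (Ccl2 and Ccl7; 13.9% of all genes) and 1 lower (Cxcl5; 13.1%). The median log2 difference of the 7 was -0.23 in C40 and 0.05 in I60, beside -0.02 and 0.00 over all genes. Both comparisons share the PBS libraries. With 7 genes tested and shares of this size, the counts show nothing particular to the set; the size of the Ccl2 and Ccl7 differences is given above.

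I60 was also compared with C40, which tests whether the differences of both lines from PBS are unequal. Of the 7 members, 2 were higher in I60 (Ccl2 and Csf1r; 3.51% of all genes) and 0 lower by limma (5.73% of all genes). At an unadjusted p below 0.05, 1 was lower, and edgeR and DESeq2 each called 0 lower. Ccl2 was 2.59 higher on the log2 scale in I60 than in C40 (SE 0.52, limma adjusted p = 0.0236), lost without I60 replicate 1 or 2 (0.184 and 0.161). Csf1r was 1.53 higher (SE 0.35, limma adjusted p = 0.0377). That call was lost without any library other than C40 replicate 1 (limma adjusted p = 0.0573 to 0.264). For Ccl7 the difference was 1.51 (SE 0.63, limma adjusted p = 0.219), and it was called without C40 replicate 1 (2.59, limma adjusted p = 0.00110). Without C40 replicate 1 Lif was called lower in I60 than in C40 (-1.55, limma adjusted p = 0.00370).

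**Figure D3:**
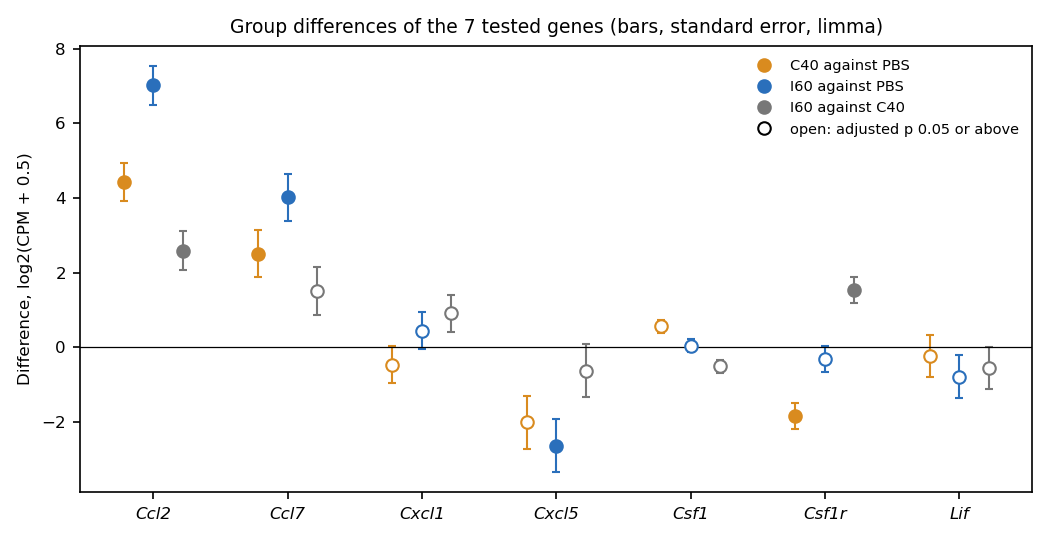
Difference between groups on the log2(CPM + 0.5) scale (vertical axis) for the 7 tested members, with the limma standard error as bars; filled points have an adjusted p below 0.05. Ccl2 has filled points in all 3 comparisons, at 4.43, 7.02 and 2.59, Csf1r is lower in C40 at -1.84, and Cxcl1, Csf1 and Lif have open points only in these fits without a replicate block.

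Per length, the order of the genes changed with the lines. Levels are given here as CPM per kilobase of exon (GENCODE M21), so that genes can be compared. In PBS the highest were Csf1 (31.7, libraries 27.5 to 35.8), Cxcl5 (29.4, 16.1 to 42.7) and Lif (28.1, 27.9 to 28.3), whose ranges overlap. Cxcl1 (7.89, 3.72 to 12.1) and Csf1r (2.77) followed. In C40 Csf1 (46.2) and Lif (30.0, 12.002 to 47.9) led, again with overlapping ranges, before Ccl2 (11.8, 5.17 to 18.4), which overlapped in turn with Lif and with Cxcl5 (8.10, 2.93 to 13.3). In I60 Ccl2 was first (61.5, 60.5 to 62.4), clear of Csf1 (32.5, 30.4 to 34.6) and Lif (16.5, 13.98 to 19.1), and Ccl7 (9.57) and Cxcl1 (9.32) had overlapping ranges after them. Ccl5 and Il6 were the last 2 genes in C40 and I60.

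Most receptors of these ligands had few or no reads, while both chains of the IL-6 receptor were called higher in I60. Of 11 receptor genes in the list, 2 passed the filter: 1 rose in C40 and 2 in I60, with 0 lower (0 also at an unadjusted p below 0.05, by edgeR and by DESeq2). Over all genes 11.2% rose in C40 and 13.9% in I60. Ccr3 and Ackr1 had 0 reads in all libraries, and Ccr2, the receptor of CCL2 and CCL7, had 1 read in the series. Cxcr2, the receptor of CXCL1 and CXCL5, was at most 0.298 CPM, and Ccr1 at most 0.753 CPM. Lifr, the ligand-binding chain for LIF, had 0 reads in PBS and C40 and 20 in I60 (0.206 and 0.166 CPM). Il6ra had 17.9 and 21.1 CPM in PBS, 49.6 and 18.9 CPM in C40, and 69.5 and 77.4 CPM in I60. Its C40 libraries differed 2.62-fold, and the C40 difference of 0.65 was not called (limma adjusted p = 0.304; 0.00494 without C40 replicate 2). It rose by 1.89 on the log2 scale in I60 (SE 0.41, limma adjusted p = 0.0150), a call lost when any PBS or I60 library was left out (0.0614 to 0.106). Il6st, which encodes gp130, rose from 134 and 112 CPM in PBS to 229 and 189 CPM in C40 (log2 difference 0.76, limma adjusted p = 0.0244). It also rose to 194 and 208 CPM in I60 (0.71, limma adjusted p = 0.0249). Both calls were lost when any PBS or I60 library was left out (limma adjusted p = 0.0574 to 0.169).

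Among 32 other chemokine genes, 7 were tested. In C40 0 rose by limma (0 also at an unadjusted p below 0.05, by edgeR and by DESeq2), 3 fell and 4 did not pass. In I60 1 rose, 4 fell and 2 did not pass. Over all genes the shares were 11.2% higher and 9.02% lower in C40, and 13.9% and 13.1% in I60. The median log2 difference was -1.45 and -1.59, beside -0.02 and 0.00 over all genes. Besides Cxcl3 and Ppbp, Cxcl16, a membrane-bound chemokine and scavenger receptor, went from 177 and 213 CPM in PBS to 51.0 and 86.1 CPM in C40, and to 21.5 and 29.9 CPM in I60. It fell in C40 (-1.55, limma adjusted p = 0.0110, lost without PBS replicate 1 or 2 at 0.0591 and 0.0801). The fall in I60 (-2.91, limma adjusted p = 0.000469) held with each library left out. Cx3cl1, the membrane-bound chemokine fractalkine, rose by 2.01 in I60 (limma adjusted p = 0.0344), from 14.2 and 19.0 CPM in PBS to 66.03 and 69.5 CPM, a call lost without any PBS or I60 library (0.0962 to 0.179). Its C40 libraries stood at 49.9 and 13.2 CPM, and the difference of 0.63 was not called (limma adjusted p = 0.448; 0.00359 without C40 replicate 2).

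Of 16 other cytokine genes, 10 were tested. C40 had 1 higher and 2 lower than PBS, and I60 had 2 higher and 3 lower, with medians of 0.12 and -0.75. The shares over all genes were 11.2% higher and 9.02% lower in C40, and 13.9% and 13.1% in I60. With 10 genes tested, these counts show nothing particular to the list. Il11 and Il18 passed the filter only through the H2O2 lines. Il11, another gp130 cytokine, had 0.700 and 0.531 CPM in PBS, 2.97 and 20.6 CPM in C40, and 12.8 and 18.8 CPM in I60. It rose by 2.94 in C40 (limma adjusted p = 0.0337). In I60 it rose by 3.85 (limma adjusted p = 0.00930), and both calls were lost when any PBS or I60 library was left out (0.0530 to 0.147). Il18, a cytokine of the interleukin-1 family, rose by 2.93 in I60 (limma adjusted p = 0.000618), from 0.945 and 0.597 CPM in PBS to 7.15 and 11.5. Csf3, the granulocyte growth factor, went from 25.01 and 23.3 CPM in PBS to 6.67 and 8.79 CPM in C40, and to 4.66 and 3.98 CPM in I60. It fell in C40 (-1.59, limma adjusted p = 0.00471, lost without PBS replicate 1 at 0.0542). The fall in I60 was called too (-2.36, limma adjusted p = 0.000552). Clcf1, also of the gp130 family, went from 228 and 105 CPM in PBS to 62.1 and 68.5 CPM in C40, and to 45.5 and 43.8 CPM in I60. It fell in C40 (-1.24, limma adjusted p = 0.0433), as it did in I60 (-1.78, limma adjusted p = 0.00845). The first call was lost without any library but PBS replicate 2 (0.0530 to 0.183) and the second without either I60 library (0.0611 and 0.0704).

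Genes of the NF-kB pathway were called higher more often than lower in both H2O2 lines. The shares over all genes were 11.2% higher against 9.02% lower for C40 and 13.9% against 13.1% for I60. Of 18 pathway genes tested, 6 rose in C40 and 0 fell by limma (1 fell at an unadjusted p below 0.05, 0 by edgeR and 0 by DESeq2), and in I60 7 rose and 1 fell. The medians were 0.40 and 0.26, beside -0.02 and 0.00 over all genes. Nfkbie passed the filter only through the H2O2 lines, and Traf1 would not have passed without them. Birc3 and Icam1 were under the filter and not tested. Birc3 had 16 reads in PBS, 1 in C40 and 1 in I60, and Icam1 had 18, 17 and 38. The list was chosen with earlier results known, so these counts are descriptive. With each library left out in turn, 3 of the 6 rises in C40 and 1 of the 7 in I60 were always called. Nfkbie, an inhibitor of NF-kB and a target of it, rose from 0.735 and 0.564 CPM in PBS to 14.1 and 17.1 CPM in C40 (3.81, limma adjusted p = 0.000170). It rose to 7.38 and 9.05 CPM in I60 (2.92, limma adjusted p = 0.000225). Traf1, an adaptor of tumour necrosis factor receptors, rose by 4.76 in C40 (limma adjusted p = 0.00375), from 1.30 and 0.382 CPM to 15.2 and 72.9. In I60 Traf1 rose by 3.06 (limma adjusted p = 0.0174), to 9.50 and 10.5 CPM, and leaving out PBS replicate 2 or an I60 library ended that call (0.0945 to 0.112). Bcl3, an atypical inhibitor protein of the pathway, rose by 2.07 in C40 (limma adjusted p = 0.00464), from 1.26 and 1.03 CPM to 4.70 and 8.65 CPM. Its rise of 1.07 in I60 was called too (limma adjusted p = 0.0452, lost without any PBS or I60 library at 0.161 to 0.204). Tnfaip3, the feedback inhibitor A20, went the other way: it fell by 2.65 in I60 (limma adjusted p = 0.00580), from 106 and 72.4 CPM in PBS to 12.1 and 15.1, lost without PBS replicate 1 or I60 replicate 1 (0.0516 and 0.0560). In C40 it had 25.8 and 72.1 CPM and was not called (-1.01, limma adjusted p = 0.166; 0.00466 without C40 replicate 2).

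Signal transducers downstream of gp130 and regulators of cytokine mRNA decay were tested beside a share of 20.2% of all genes called in C40 and 27.1% in I60, in either direction. Of 12 genes of IL-6 family signalling, C40 had 1 higher and 0 lower by limma (2 lower at an unadjusted p below 0.05, 0 by edgeR and 1 by DESeq2), and I60 had 0 called. At an unadjusted p below 0.05, 2 rose in I60 and 1 fell, edgeR called 0 in I60, and DESeq2 called 1 higher and 1 lower. The rise was Cebpd, a transcription factor (0.87, limma adjusted p = 0.0403), lost without any library but C40 replicate 1 (0.0842 to 0.225). Jak1 and Stat3 had means of 140 and 135 CPM in PBS, 150 and 96.6 CPM in C40, and 159 and 139 CPM in I60. Of 9 mRNA decay genes, C40 had 1 higher and 0 lower by limma (1 lower at an unadjusted p below 0.05, 0 by edgeR and 1 by DESeq2). I60 had 1 higher and 1 lower. Zfp36l1, which binds AU-rich messages, rose by 1.02 in C40 (limma adjusted p = 0.0107, lost without PBS replicate 1 or 2 at 0.0746 and 0.0821). Zc3h12a, an RNase that degrades cytokine messages, rose by 1.15 in I60 (limma adjusted p = 0.0138), from 8.44 and 9.38 CPM to 18.7 and 22.1 CPM. Zfp36l2 fell by 0.56 in I60 (limma adjusted p = 0.0303). Both I60 calls were lost when any PBS or I60 library was left out (0.0591 to 0.171).

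**Figure D4:**
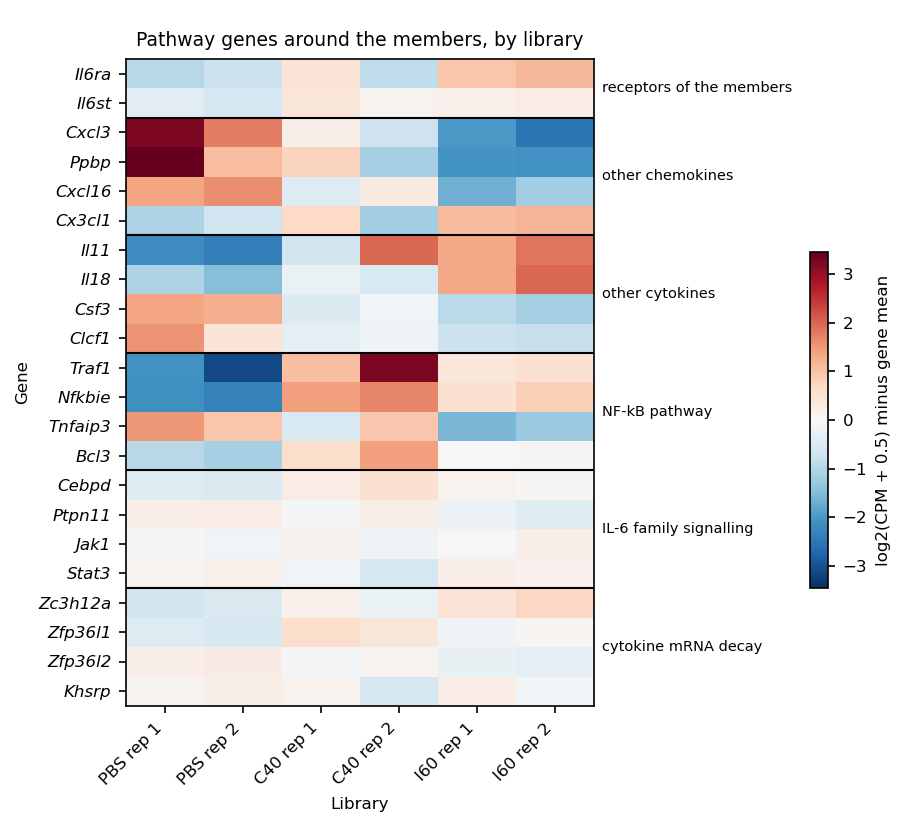
Colour shows log2(CPM + 0.5) of each gene minus its mean over the 6 libraries (columns), for up to 4 tested genes from each of 6 lists around the members (rows, grouped). Traf1 and Il11 are highest in C40 replicate 2, at 72.9 and 20.6 CPM, and Cxcl3 and Ppbp are highest in PBS replicate 1, at 45.4 and 36.9 CPM.

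The tested genes whose pattern over the 6 libraries was most like that of a member were found by the root mean square difference of centred log2(CPM + 0.5), where 0 would be an identical pattern. For Ccl2 they were C1qtnf6 (0.49), Pde4a (0.60) and the collagen gene Col6a2 (0.69), for Ccl7 the Wnt receptor gene Fzd1 (0.36), Mgp (0.38) and Apcdd1 (0.39). For Cxcl5 they were Nqo1, which encodes a quinone reductase (0.26), Psca (0.34) and Lypd3 (0.42). For Csf1r they were Slc9a3r1 (0.14), F2rl1 (0.23) and Smtnl2 (0.24). C1qtnf6 stood at 0 and 0.0166 CPM in PBS, 8.67 and 4.03 CPM in C40, and 79.6 and 75.5 CPM in I60. Cxcl1, Csf1 and Lif, whose group means spanned less than 1 on the log2 scale, were left out of this search.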

How the data were processed

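RNA was measured in 6 libraries, 2 each of PBS, C40 and I60. Per the labels' protocols, ribosomal RNA was depleted and libraries were read as single reads. STAR and mm10 are named in the submitters' processing notes; the STAR version, counting program, annotation and strand setting used are not given here by any source. The authors' deposited table holds CPM, 1 row per Entrez gene. Each value divided by the smallest of its library was whole within 0.01 (100% of values), which recovered the reads. RefSeq gave symbols for 24374 rows.

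The 11524 genes that reached 1 CPM in 2 or more libraries were tested with limma 3.58.1 in R 4.3.3 (intensity trend, two-sided, log2(CPM + 0.5), 1 model of 3 groups, 3 residual degrees of freedom, Benjamini-Hochberg over all genes). The test was tried on simulated data. Alternatives were pseudocounts of 0.1 and 1, no filter and one at 5 CPM, TMM scaling, edgeR 4.0.16 and DESeq2 1.42.0 on recovered reads, the groups compared alone, a replicate block, and each library left out. On recovered reads edgeR called 2367, 3110 and 1084 genes in C40 against PBS, I60 against PBS and I60 against C40. Differences of replicate 2 from replicate 1 correlated across 11524 genes at 0.154 (PBS and C40), 0.105 (PBS and I60) and 0.438 (C40 and I60). No label says that a number marks a shared culture or day. The main test therefore left the replicate numbers out, and they entered only through the replicate block. The members and lists were chosen with earlier results of these data known. Beside all members, up to 4 genes per list were named: calls of largest difference with at least 1 CPM, otherwise the most abundant. If strand was not used in counting, reads of genes that overlap Ccl5, Csf1, Csf1r and Il6 cannot be told apart from theirs. Intervals and floors cover counting error only.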

Additional observations from a re-analysis of the deposited data

Results flagged for a closer look

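Of the members, 2 had unequal differences from PBS in the 2 H2O2 lines, by the limma test of I60 against C40. Ccl2 was 2.59 higher on the log2 scale in I60 than in C40 (adjusted p = 0.0236), where both lines were above PBS. Csf1r was 1.53 higher in I60 than in C40 (limma adjusted p = 0.0377), where C40 was below PBS and I60 was not called. All 4 libraries of each comparison showed its direction, and each call was lost with some libraries left out, as given above.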

How the results depend on the processing

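With 2 libraries per group the calls were sensitive to single libraries. The rises of Ccl2 and Ccl7 in I60 were called under every alternative run. Higher members in C40 numbered 2, and 1 (Ccl2) with a pseudocount of 1, with no filter or with the 2 groups alone. Lower members in C40 numbered 1, and 2 (with Cxcl5) by DESeq2 or with the replicate block. Lower members in I60 numbered 1, 0 with no filter and 2 (with Lif) with the 2 groups alone. Members higher in I60 than in C40 numbered 2, 0 with no filter or with the 2 groups alone and 1 (Csf1r) by DESeq2. With 1 library left out, members higher in C40 than in PBS ran from 1 to 3, lower in C40 from 0 to 2, lower in I60 from 0 to 2, and higher in I60 than in C40 from 0 to 3. Members higher in I60 than in PBS numbered 2 each time, and members lower in I60 than in C40 ran from 0 to 1. The share of all genes called ran from 7.33% to 30.4% for C40 against PBS, 12.1% to 37.0% for I60 against PBS and 2.94% to 15.5% for I60 against C40.

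The sign turned for Lif in C40 (0.11 by edgeR and by DESeq2; -1.22 to 0.77 with 1 library left out) and in I60 against C40 (-1.55 to 0.44). With 1 library left out it also turned for Cxcl1 (-1.27 to 0.36 in C40, -0.37 to 1.26 in I60), Csf1 (-0.14 to 0.24 in I60) and Cxcl5 (-1.66 to 0.42 in I60 against C40). In C40 it turned for Il6ra (-0.04 to 1.33) and Cx3cl1 (-0.31 to 1.57). None of these was called in the main test, and the cause was not tested. With the replicate block Csf1 was called higher in C40 (0.56, limma adjusted p = 0.0455), and Cxcl5 (-2.01, 0.0122) and Ppbp (-2.46, 0.0172) lower. The block changed no other call of a member. For the other named genes this was checked only against PBS, for those called in a line and outside the marker lists. Among these it changed no further call. At this depth Ccl5, Ccl20 and Il6 are limited by their few reads.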

Other observations

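The C40 libraries differed in more cytokine genes than the members. Csf2, which encodes the granulocyte and macrophage growth factor GM-CSF and was picked after its values were seen, stood at 1.26 and 0.730 CPM in PBS, 0.312 and 47.1 CPM in C40, and 0.262 and 0.387 CPM in I60. It was not called in C40 (log2 difference 2.08, SE 1.60, limma adjusted p = 0.392). Without C40 replicate 1 it passed (limma adjusted p = 6.8e-05), in a fit where C40 is 1 library and takes its spread from PBS and I60 alone. Lif (3.99-fold), Il11 (6.93-fold), Traf1 (4.79-fold), Relb (2.31-fold) and Nfkb2 (1.97-fold) were also higher in C40 replicate 2 than in replicate 1. Ccl2 (3.56-fold), Ccl7 (6.56-fold), Cxcl5 (4.52-fold), Cx3cl1 (3.80-fold) and Il6ra (2.62-fold) were higher in replicate 1. The tested fibroblast markers were split: Col3a1 (4.73-fold), Pdgfrb (3.81-fold) and Pdgfra (1.59-fold) were higher in replicate 1. Dcn (1.29-fold) and Col1a1 (1.31-fold) were higher in replicate 2. With 1 library on each side these ratios have no replicate check, and what sets the C40 libraries apart was not tested.

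Cd68, a lysosomal protein used as a macrophage marker, rose in I60 (log2 difference 2.09, limma adjusted p = 0.00292), from 4.29 and 4.99 CPM in PBS to 16.2 and 28.0 CPM. Cd14, another marker of the leukocyte list, had 12.4 and 12.9 CPM in PBS, 21.6 and 25.5 CPM in C40 and 19.3 and 23.2 CPM in I60. It rose in C40 (0.87, limma adjusted p = 0.0334), a call lost without any library but C40 replicate 1 (0.0627 to 0.194). In I60 it was not called (0.72, limma adjusted p = 0.05002) and passed without C40 replicate 1 or 2 (0.0309 and 0.0317), and edgeR and DESeq2 each called 2 markers of the list higher. Mrc1, the other marker tested, had lower means in both lines (2.74 CPM in PBS, 1.65 CPM in C40 and 0.797 CPM in I60) and was not called. Ptprc, Itgam and Lyz2 were at or under 0.35 CPM in every library. Ptprc (24, 5 and 2 reads in PBS, C40 and I60) and Itgam (12, 4 and 1) also had fewer reads in the lines, while Aif1 had more (2, 5 and 11).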
